A study of Homo sapiens with 4 samples.

Results

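The 7 mature miRNAs miR-549, miR-1298, miR-4424, miR-302b-3p, miR-4488, miR-3614-5p and miR-4284 were followed through small-RNA libraries of the human colorectal carcinoma line HCT116 before and after induction of a short hairpin RNA (shRNA). They are 7 of the 1345 miRNA rows in the deposited table, found by name, and they were chosen by their values in these libraries: low before induction and higher in both libraries after it. The shRNA was directed at SAE2, the catalytic subunit of the enzyme that activates SUMO, a small protein that is attached to other proteins. The cells were grown in DMEM with serum, and doxycycline, which switches the shRNA on, was given for 3 days. All 4 libraries come from HCT116 cells that carry an inducible shRNA. The uninduced group held minus replicate 1 (shRNA line sh1) and minus replicate 2 (line sh2), and the induced group held plus replicate 1 (labelled sh-plus, with no line number) and plus replicate 2 (line sh2). The labels give the same doxycycline treatment for every library, so the reading of minus as uninduced rests on that word. Doxycycline itself cannot be told apart from the knockdown here. The labels put the minus libraries in different lines, so the spread between them holds any difference of line along with technical spread. For the plus libraries this is so only if plus replicate 1 is of line sh1. Nothing in the labels names separate cultures, and p-values measure the spread between the 2 libraries of a group only.

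A miRNA is cut from 1 arm of an RNA hairpin, is loaded into an Argonaute protein and guides it to messenger RNAs, mostly through its seed, the bases 2 to 8. Many miRNA hairpins lie inside an intron or exon of a host gene and are made from the host's transcript when both run in the same direction. Some miRNAs of restricted expression are almost silent in most cell lines. The miR-302 cluster, for example, is known for its high level in pluripotent stem cells.

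The sequences show how unlike the 7 miRNAs are. They are RefSeq entries (GRCh38.p14), printed 5′ to 3′ with the seed in capitals. The table writes miR-549 and miR-1298 without an arm, and no source used here says which arm was counted. The 3p arm of miR-549 and the 5p arm of miR-1298 are shown on the assumption that they held the plain names, and the seed, length, GC content and position given for these miRNAs depend on it.
miR-549: uGACAACUauggaugagcucu
miR-1298: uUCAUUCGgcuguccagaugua
miR-4424: aGAGUUAAcucaaaauggacua
miR-302b-3p: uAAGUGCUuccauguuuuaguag
miR-4488: aGGGGGCGggcuccggcg
miR-3614-5p: cCACUUGGaucugaaggcugccc
miR-4284: gGGCUCACaucaccccau
The 7 seeds were all different. The miRNAs were 18 to 23 bases long, and miR-4488 and miR-4284 were the 18-base ones. The GC content ran from 31.8% in miR-4424 to 88.9% in miR-4488, against a median of 50% over the 1078 table rows whose names match a RefSeq mature miRNA. The value of miR-4488 was above that of 99.4% of those rows and the value of miR-4424 above that of 4.17%.

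The hairpins lie on 7 chromosomes, and host genes were read from GENCODE release 29 (GRCh38). miR-1298 (chrX:114715250-114715271, plus strand) lies in an intron of HTR2C, a serotonin receptor gene of the brain, in the same direction. miR-3614-5p (chr17:56891319-56891341, minus strand) lies in TRIM25, a ubiquitin ligase of the antiviral RIG-I pathway, also in the same direction. Its hairpin overlaps an exon in 3 of the 4 TRIM25 transcripts that span it and an untranslated region in 2 of them. miR-302b-3p (chr4:112648489-112648511, minus strand) runs against LARP7, the gene of a 7SK RNA-binding protein, and lies in the non-coding transcript AC106864.1 of its own strand. miR-549 (chr15:80841993-80842013, minus strand) runs against CEMIP, a gene for hyaluronan breakdown, within an intron. miR-4284 (chr7:73711327-73711344, plus strand) runs against STX1A, which encodes a syntaxin of neurotransmitter release, also within an intron. miR-4424 (chr1:178677763-178677784, plus strand) and miR-4488 (chr11:61508599-61508616, plus strand) overlapped no annotated host, and the gene nearest to the miR-4488 hairpin, LRRC10B, lay 0.143 kb away on the same strand. So 2 members share strand with a protein-coding host, 3 run against one and 2 have none. Messenger RNA was not measured in these libraries, so host gene levels are not analysed here.

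Values are normalised read counts as the submitters scaled them, and 1 read is worth close to 1 count. Pairs of values are given in the order replicate 1, replicate 2. The 3-read floor, below which a level is not told from no signal, lay between 2.83 and 3.08 counts. In the uninduced libraries 6 of the 7 miRNAs had a mean under 15 counts and 5 a mean under 10. miR-4284 went against the description as near silent, at 77.9 ± 1.05 counts (SD, n = 2). Together the 7 made up 0.00109% and 0.00114% of the reads before induction and 0.00597% and 0.00384% after it. For all 7 both plus libraries lay above both minus libraries, which the choice of members fixed, and 29.1% of the 709 tested rows, those averaging 10 counts or more, did so. The median log2 change of the 7 was 1.79, against −0.03 over those 709, and it is a description for the same reason. Log2 changes are on the log2(value + 1) scale, which understates those of low miRNAs.

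**Figure D1:**
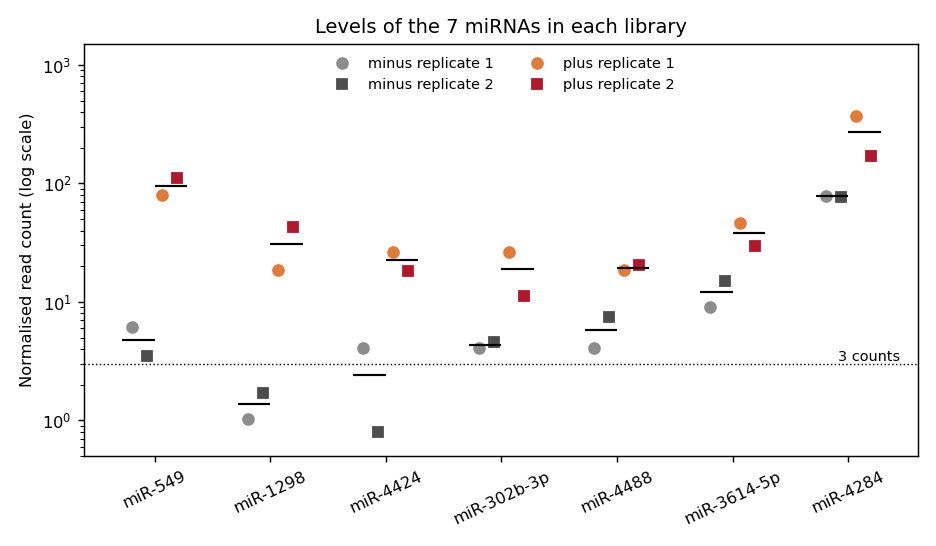
Normalised read count (log scale) of the 7 miRNAs in each of the 4 libraries, with bars at the mean of each condition and a dotted line at 3 counts. The plus libraries (orange, red) sit above the minus libraries (grey) for each miRNA, from 18.5 and 42.7 against 1.03 and 1.72 for miR-1298 to 371 and 172 against 78.7 and 77.2 for miR-4284.

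Of the members read in the direction of a host gene, miR-1298 had 1.03 and 1.72 counts before induction and 18.5 and 42.7 after it. The minus values amount to 1 and 2 reads, under the floor, and the plus values to 18 and 42 reads. The ratio of plus to minus reads, scaled by depth, was 20.2 with a 95% counting interval of 6.58 to 101. Leaving out plus replicate 2 gave 12.6, and leaving out minus replicate 2 gave 29.5. The plus libraries differed from each other, replicate 2 being 2.17 times replicate 1 (counting interval 1.22 to 4.005). miR-1298 stood at rank 1015 and 1028 of 1345 rows in the minus libraries and at rank 613 and 485 in the plus libraries.

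miR-3614-5p had 9.10 and 14.98 counts before induction and 46.1 and 29.6 after it. These values stand for 25 reads before and 74 after induction, a ratio of 2.99 (1.87 to 4.91). The order of the lines turned over, since minus was higher in replicate 2 and plus higher in replicate 1. The lowest plus value was 1.98 times the highest minus value, the smallest such gap among the 7.

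miR-302b-3p belongs to the stem cell cluster and shares its seed with miR-372, miR-373-3p and several miR-520 members. It had 4.05 and 4.61 counts before induction and 26.6 and 11.2 after it. The minus libraries were alike, and plus replicate 2 was 0.393 times plus replicate 1 (counting interval 0.175 to 0.824). With 9 reads before and 37 after induction the ratio was 4.15 (1.97 to 9.77). Leaving out plus replicate 1 gave 2.38, and leaving out plus replicate 2 gave 6.05.

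Among the members that run against a gene, miR-549 had the highest induced level of the 6 low miRNAs. It had 6.09 and 3.50 counts before induction and 80.0 and 110.1 after it. The lowest plus value was 13.1 times the highest minus value, and the ratio between the plus libraries, 1.29, had a counting interval of 0.953 to 1.75. Read by rank it went from 775 and 897 to 411 and 368 of 1345 rows. Its ratio of 18.8 (9.98 to 39.8) rests on 10 reads before and 186 after induction. The hairpin is shown with the mature arm in capitals because its arms are exact reverse complements.
miR-549 hairpin: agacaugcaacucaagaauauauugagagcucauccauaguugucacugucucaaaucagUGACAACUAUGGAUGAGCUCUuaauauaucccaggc
The reverse complement of all 21 bases lies in the same hairpin, so a read of this sequence can come from either strand of the place, the CEMIP strand included. The reads cannot tell these strands apart.

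miR-4284 was the most abundant member, with 78.7 and 77.2 counts before induction and 371 and 172 after it. The minus libraries were within counting error of each other (ratio 0.998, interval 0.723 to 1.38), and plus replicate 2 was 0.433 times plus replicate 1 (0.358 to 0.521). Its ratio of plus to minus reads was 3.34 (2.79 to 4.01) over 160 and 529 reads. Leaving out plus replicate 1 gave 2.04, and leaving out plus replicate 2 gave 4.72. Its 18 bases also occur whole in MT-TF, the mitochondrial transfer RNA for phenylalanine, as bases 49 to 66 of 71. Whether the counted reads came from that transfer RNA was not tested. Among the 7 miRNAs it is the only one whose sequence was found in a mitochondrial transcript of GENCODE, and its predicted hairpin was the least stable of the 7, at −29.9 kcal/mol per 100 bases (RNAfold). That was more stable than 3.51% of the 712 RefSeq hairpins behind the table's matched rows.

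The members without a host differed in sequence. miR-4424 had 4.05 and 0.80 counts before induction and 26.6 and 18.3 after it. The minus values stand for 4 and 1 reads, and the ratio of plus to minus reads was 8.88 (3.53 to 28.7). Leaving out minus replicate 1 gave 22.8 and leaving out minus replicate 2 gave 5.40, since 5 reads in all set the denominator. Its hairpin is shown, mature arm in capitals, because it forms a long stem.
miR-4424 hairpin: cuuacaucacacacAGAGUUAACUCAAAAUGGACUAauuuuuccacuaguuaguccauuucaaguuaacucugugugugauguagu
RNAfold paired 83.7% of its 86 bases, more than in 89.8% of the 712 hairpins, whose median was 73.7%. For the other 6 hairpins the share was 60.5% to 74.2%.

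miR-4488 had 4.05 and 7.47 counts before induction and 18.5 and 20.4 after it. It had the closest plus libraries of the 7, at a ratio of 1.03 (0.519 to 2.07). It went from 12 reads to 38, a ratio of 3.19 (1.63 to 6.71). Both minus libraries lay below both plus libraries by a factor of at least 2.47.

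The design uses independent shRNAs, so each line was also read alone, taking plus replicate 1 as the induced library of sh1 because sh2 has its own. With 1 library per line and condition there is no test, and the intervals cover counting error only. All 7 miRNAs were higher after induction in both lines, which the choice of members fixed, so the direction in the lines is a description. miR-549, miR-1298 and miR-4424 had the larger ratio in the sh2 line, at 27.0, 21.0 and 18.0, against 13.3, 18.4 and 6.63 in the sh1 line. For each of them the counting intervals of the lines overlapped. In the same order they were 10.2 to 101, 5.45 to 179 and 2.84 to 749 in sh2. In sh1 they were 5.82 to 37.2, 2.90 to 765 and 2.30 to 26.1. The other 4 had the larger ratio in the sh1 line. For miR-4284 the counting intervals of the lines did not overlap, at 4.72 (3.69 to 6.11) in sh1 and 2.05 (1.56 to 2.70) in sh2. In the sh2 line the interval reached below 1 for miR-302b-3p, at 2.20 (0.704 to 8.06), and for miR-3614-5p, at 1.81 (0.951 to 3.57).

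**Figure D2:**
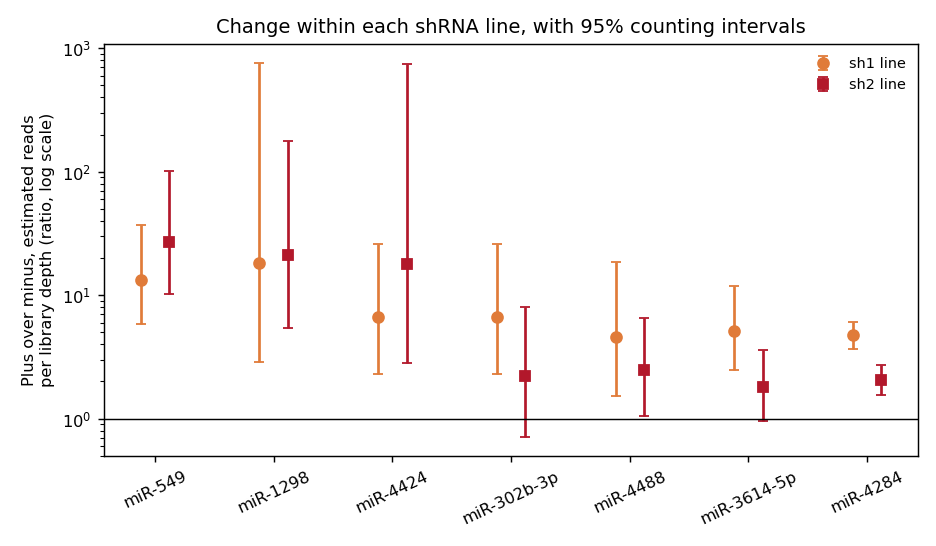
Ratio of plus to minus estimated reads, scaled by depth (log scale), of the 7 miRNAs in the sh1 line (circles) and sh2 line (squares), with bars for the 95% exact counting interval and a line at 1. The intervals are widest where a minus library had 1 read, and those of miR-4284 do not overlap between lines.

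Within the induced group the counting interval of the replicate ratio excluded 1 for miR-1298, miR-302b-3p, miR-3614-5p and miR-4284, and within the uninduced group for none of the 7. The share of all rows that did so was not counted, so whether this sets the members apart is not known. Libraries of a group differed beyond counting error in general, with a chi-square per degree of freedom of 67.1 (plus) and 19.9 (minus). The low members had few minus reads and so wide minus intervals, as for miR-1298 (0.0989 to 112). Plus replicate 1 was the higher library for 4 members and plus replicate 2 for the other 3, so no single induced library was higher for all. Among the 267 other miRNAs with a mean of 10 to 60 counts, plus replicate 1 was higher for 127 (47.6%). The median ratio of the higher to the lower plus library, with 1 added to each value, was 1.54 over the 7 miRNAs. It was 1.27 over the 267 other miRNAs with a mean of 10 to 60 counts. Between the minus libraries it was 1.58 and 1.25. The 267 were matched on the mean over the 4 libraries and not on the minus level, where most members had few reads. miR-4284, at a mean of 175 counts, lies outside that band. The 2 sets are therefore not alike in counting error. Library depth moved far less than the members did. The estimated reads per library ran from 9577487 to 10298524, and the plus to minus ratio of depth was 0.991.

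Genomic neighbours and partner strands were not used to choose the members and give a separate reading. Of the miRNAs of the HTR2C intron, miR-1911-5p had no read in either minus library and 5 and 11 reads in plus replicates 1 and 2. Set against an assumed 3 reads over the uninduced group it was 5.38-fold higher. The counting interval of its ratio began at 3.89 and had no upper end. miR-448 had 1 read in each minus library and 0 and 4 in the plus libraries, so its groups overlapped. miR-1264 had 2 reads and miR-1912 1 read, all in plus replicate 1. Summed without miR-1298, these 4 miRNAs had 2 reads before and 23 after induction, a ratio of 11.6 (2.87 to 102). Plus replicate 2 held 15 of the 23 reads, 11 of them from miR-1911-5p, and plus replicate 1 held 8. The order of the sum was that of miR-1298, while miR-1264 and miR-1912 had the reverse order.

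In the miR-302 cluster, which includes miR-367, 7 other strands had a row. The highest, miR-302a-5p, had 6.05 and 4.66 counts before induction and 12.3 and 8.17 after it, a read ratio of 1.83 whose interval of 0.838 to 4.24 includes 1. miR-367-3p had 1 and 0 reads in the minus and 3 and 4 in the plus libraries. miR-302d-3p had 1 and 0 against 5 and 1 reads, and miR-302a-3p 0 and 0 against 3 and 1. miR-302c-3p and miR-302d-5p had 2 reads each, all in plus replicate 1, and miR-302c-5p had 1 read in each group. Together the 7 strands had 14 reads before and 42 after induction, a ratio of 3.03 (1.62 to 5.9995), with 28 of the 42 in plus replicate 1 as for miR-302b-3p. The ratio was 1.95 (0.860 to 4.41) with plus replicate 1 left out and 4.19 with plus replicate 2 left out. Among miRNAs with the seed of miR-302b-3p outside the cluster, miR-372, miR-373-3p and miR-520a-3p had no read in the minus libraries and 7 in the plus libraries, 6 of them in plus replicate 1. None of these rows reached the level needed for a test. Of the whole table, 114 rows had no read in the minus libraries, 28 of which had reads in both plus libraries, and 80 rows had no read in the plus libraries. Those 114 rows also had more reads in plus replicate 1, at 132, than in plus replicate 2, at 87.

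The partner strand of miR-3614-5p is the only relative with a mean of at least 10. miR-3614-3p had 8.07 and 4.61 counts before induction and 17.4 and 14.3 after it. Both plus libraries lay above both minus libraries. Both its minus values were under 10, so it reached the mean of 10 only through its plus libraries. A relative that began as low and did not rise would not have been tested, so the fit is no even test of relatives. Its log2 change of 1.23 (standard error 0.50) missed the threshold of 0.05 (limma, adjusted p = 0.0589, unadjusted p = 0.0175). Without a filter on low values the limma adjusted p was 0.185. Under the 12 alternatives that tested it the adjusted p ran from 0.0490, under median-ratio scaling, to 0.352. So 0 of 1 relative tested was called at an adjusted p under 0.05 (limma), against 28.5% of all 709 miRNAs. Its unadjusted p was under 0.05, as was that of at least those 28.5%, since an adjusted p is never below the unadjusted p. The full share of miRNAs under that unadjusted level was not counted.

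**Figure D3:**
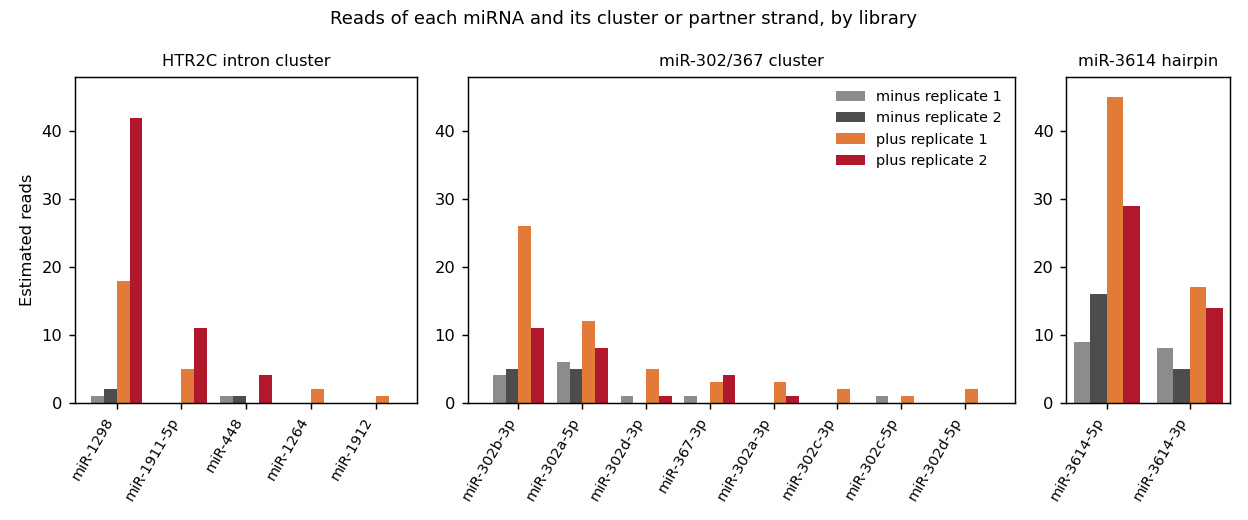
Estimated reads in each library (bars, 1 for each of the 4 libraries) of miR-1298 and its HTR2C neighbours, of miR-302b-3p and the other strands of its cluster, and of both strands of miR-3614. miR-1911-5p has 0 reads in the minus and 5 and 11 in the plus libraries, and plus replicate 1 holds 28 of the 42 induced reads of the miR-302 neighbours.

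As miR-4284 matches a mitochondrial transfer RNA, the other names were searched in the same way, a search added after its match was seen. Of 1178 rows with a RefSeq sequence, 3 occurred whole in a mitochondrial transcript. miR-4485, a row that names no arm and whose 3p arm lies in the mitochondrial ribosomal RNA MT-RNR2, rose from 97.8 and 84.8 counts to 213 and 148 (log2 change 0.95, SE 0.20, limma adjusted p = 0.000202). Plus replicate 1 was the higher plus library, as it was for 4 of the 7 members, miR-4284 among them. The third, miR-1973, also of MT-RNR2, stayed between 1.86 and 4.03 counts in the 4 libraries.
Of 13 tested names on a list of miRNAs that resemble fragments of abundant RNAs, 5 rose and 2 fell, against 13.4% and 15.1% of all tested miRNAs, and the median log2 change was 0.22. The risers were miR-4516 (log2 change 1.55), miR-4461 (1.07), miR-1248 (1.01), miR-4485 (0.95) and miR-1246 (0.75). miR-4286 (−0.65) and miR-720 (−0.44) fell. None of these 7 calls stood with plus replicate 1 left out, with plus replicate 2 left out, without a filter on low values or without a variance trend, where 7, 8, 5 and 5 calls were made in all. The calls of miR-4485 and miR-1248 were also lost under quantile normalization, that of miR-1248 with either minus library left out and that of miR-720 without minus replicate 2. miR-1260a (0.22), miR-1260b (0.03), miR-1280 (−0.12), miR-4454 (−0.22), miR-4532 (0.61) and miR-3687 (−0.40) did not pass. The search found 4 rows whole in a snoRNA, small nuclear RNA or ribosomal RNA outside the mitochondrion. Of these, miR-1246 in the U2 small nuclear RNA and miR-1248 in the snoRNA SNORA81 rose. miR-1291 in SNORA2C did not pass (log2 change 0.08, limma adjusted p = 0.902), and miR-3651 in SNORA84, at 1.01 and 1.89 counts in the minus and 3.07 and 1.03 in the plus libraries, was too low to test.

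The members were set beside the rows that start as low. Of 710 rows with a minus mean under 15 counts, both plus libraries lay above both minus libraries in 167 (23.5%) and below them in 80. Most of these rows averaged under 10 counts over the 4 libraries. Of the 74 with a mean over the 4 libraries of at least 10, which favours rows that are higher after induction, 33 (44.6%) lay above, and 11 (14.9%) did so with a 2-fold higher mean. The 11 are 6 of the members with miR-3614-3p, miR-4497, miR-134, miR-4423-5p and miR-664-5p. The mirror count, of rows with a plus mean under 15 and a mean over the 4 libraries of at least 10, gave 8 of 69 that were 2-fold higher in the minus libraries with no overlap. Of these 8, miR-548an, miR-548ar-5p, miR-548h-3p and miR-548z belong to the miR-548 family, and miR-548h-3p and miR-548z have identical values and are 1 signal.

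**Figure D4:**
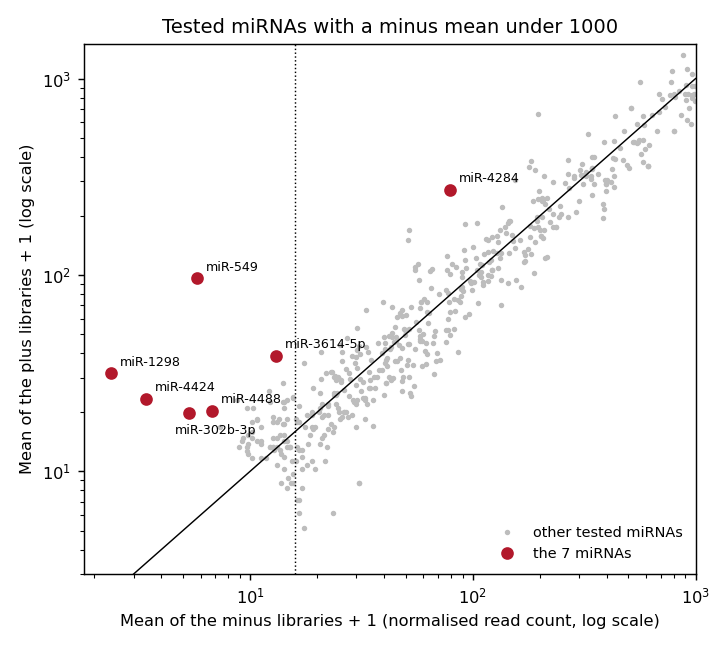
Mean of the plus libraries against mean of the minus libraries, each with 1 added (log scales), for tested miRNAs with a minus mean under 1000, with the 7 miRNAs in red, a line of equality and a dotted line at a minus mean of 15 counts. Since a mean of at least 10 is required, the lower left corner is empty, and a miRNA that starts near 0 is shown only if it ends high, as miR-549 does at 95.1 from 4.80.

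Across 4 libraries the rows with the profile nearest to the members' median profile, by Euclidean distance of log2(value + 1), were miR-4497 (distance 1.12), miR-134 (1.43), miR-3614-3p (1.43), miR-4726-5p (1.69) and miR-664-5p (1.72). Nearness to that profile chose these rows by the same contrast, so the limma values given here are descriptions and no test of them. miR-4497 had 6.07 and 9.35 counts in the minus and 20.5 and 23.4 in the plus libraries, with a log2 change of 1.42 (limma adjusted p = 0.0134). Both its minus values were under 10, so it met the required mean of 10 only through its plus values. That call was lost without minus replicate 1, plus replicate 1 or plus replicate 2, under quantile normalization, without a filter and without a trend. miR-134, miR-4726-5p and miR-664-5p did not pass, at limma adjusted p-values of 0.0529, 0.165 and 0.0516. miR-134 and miR-664-5p passed under median-ratio scaling (0.0403 and 0.0319) and at a minimum mean of 5 (0.0486 and 0.0475). miR-664-5p also passed with the shRNA line as a block (0.0498) and without minus replicate 1 (0.0122). By size of change, miR-3614-5p was the member just inside, with a log2 change of 1.58, and, among rows with a mean of at least 10, the nearest below it that also began under 15 counts with no overlap were miR-4497 at 1.42, miR-3614-3p at 1.23 and miR-664-5p at 1.19.

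The libraries carried the epithelial profile of HCT116, with all 7 epithelial markers between 2736 and 344828 counts. Of these, 4 rose (limma), namely miR-192-5p (log2 change 0.78, adjusted p = 9.78e-09), miR-194-5p (0.72, 4.74e-08), miR-200b-3p (0.28, 0.00729) and miR-200a-3p (0.26, 0.0142). None of these 4 calls stood with either plus library left out, without a filter or without a trend. Those of miR-200a-3p and miR-200b-3p were also lost with either minus library left out, and that of miR-200a-3p under equal totals and quantile normalization. miR-141-3p (0.17), miR-200c-3p (0.13) and miR-31-5p (0.10) did not pass. Of 8 pluripotent cell markers 7 had a row, with 11 reads before and 62 after induction, 37 of the latter from miR-302b-3p itself. Placental markers of 19q13 had 4 against 16 reads over 5 rows, muscle markers 16 against 25 over 2 rows, blood markers 2261 against 2160 over 5 rows and the liver marker miR-122-5p 99 against 102. The neuron list, nearly all of it miR-128, had 21879 against 20035 reads over 4 rows, although 3 of the 4 rows had more reads after induction. The tested neuron rows had a median log2 change of 0.46 and 0 of 2 were called (limma). miR-124-3p, a miRNA of neurons, had 13.1 and 13.1 counts before induction and 31.8 and 22.5 after it, and its log2 change of 0.97 missed the threshold (limma adjusted p = 0.0514, unadjusted p = 0.0148). It passed with a pseudocount of 5 (0.0465), under median-ratio scaling (0.0403) and at a minimum mean of 20 (0.0429), and over its 14 alternatives the adjusted p reached 0.246. The part of other cells in the members' levels was not tested, and in a bulk library a few cells with much of a miRNA and many cells with little cannot be told apart.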

How the data were processed

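Small-RNA libraries of 4 HCT116 samples were used, 2 minus and 2 plus. The deposited signal is a read count per mature miRNA adjusted by the submitters, and reads were trimmed with cutadapt per the labels. The submitters' processing notes list TopHat2 2.0.8b and edgeR with the builds hg19 and GRCh37, and do not say what each was used for. The read counter and annotation: not given in the sources used here. Columns that write sh4 were matched to samples titled sh2 by library number and index.

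What 1 read is worth was read off the low values, at 0.943 to 1.03 counts. Between 84.2% and 100% of values under 60 lay within 0.1 of a whole number of reads, so reads are estimates and no count model was run. Read ratios carry exact Clopper-Pearson 95% intervals, which cover counting error only. Totals were 9700472 to 10519207 counts. The 2 libraries of a group differed beyond sampling noise (chi-square per degree of freedom 19.9 and 67.1).

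limma 3.58.1 (R 4.3.3) was run with a mean-variance trend, on log2(value + 1), over all 709 miRNAs with a mean of at least 10. Tests were two-sided, with Benjamini-Hochberg adjustment and threshold 0.05. The fit was also run on simulated counts with an assumed spread, the same in both groups. That run does not show whether the calls hold in these libraries. With 2 libraries a group the fit rests on 43.0 prior and 2 residual degrees of freedom. Members were not tested, since this contrast chose them. Rows named only for a near profile or a change just below the members were chosen through it too. Their p-values are descriptions. The members and lists were chosen with earlier results of these data known. Named beside the members are their other strands, cluster mates within 10 kb or on a cluster list, same-seed rows, the 5 rows of nearest profile, the 3 tested rows just below the members in log2 change, the tested names on the abundant-RNA list and, added later, the rows found in short RNAs and the epithelial and neuron markers. The sh2 libraries share a line by label, and the other 2 by elimination; the deviations of the lines correlated at 0.0555. Hairpins were folded with RNAfold 2.7.2. Alternatives were other pseudocounts, scalings, filters, no trend, the line as a block and each library left out.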

Additional observations from a re-analysis of the deposited data

Results flagged for a closer look

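Among the names given above, 6 moved in opposite directions in the shRNA lines, with 1 library per line and condition, so the difference was not tested. miR-448 of the HTR2C intron had a log2 change of −0.99 in the sh1 line and 1.39 in the sh2 line, from 1 read to 0 and from 1 read to 4. In the sh1 and sh2 lines miR-1260b had 0.146 and −0.0907, and miR-1280 had 0.117 and −0.355. In the same order miR-1291 had −0.152 and 0.307, miR-1973 −0.712 and 0.505 and miR-3651 1.02 and −0.51, where miR-1973 and miR-3651 lay between 1.01 and 4.03 counts in the 4 libraries.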

How the results depend on the processing

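The direction of the 7 miRNAs was fixed by their choice, so that it did not turn is no sign of stability. Over 66 recomputed log2 changes their smallest was 1.13. Leaving out minus replicate 1 moved their median log2 change from 1.79 to 1.71, and leaving out minus replicate 2 moved it to 2.01. With plus replicate 1 left out it was 1.71, with plus replicate 2 left out 2.37, each over the 5 miRNAs that still averaged 10 counts. It ran from 1.64 to 1.89 under the other alternatives, and the median read ratio of all 7, 4.15, from 3.24 to 6.05 with 1 library left out and was 4.11 with equal depths. With a pseudocount of 5 the change of miR-549 fell to 3.35 and that of miR-1298 to 2.39. The shRNA line as a replicate block left each of these changes as it was. With 1 library per line and condition this was fixed in advance, and these values are counted among the 66. The block gave 216 calls (103 up, 113 down), with miR-664-5p gained and no other call changed among the named miRNAs outside the 7. The background count of 202 calls (95 up, 107 down) was 103 (48 and 55) under quantile normalization, 5 (5 and 0) without a filter on low values and 5 (5 and 0) without a trend. With 1 library left out it ran from 7 to 113, the rises from 6 to 57 and the falls from 1 to 58, with 7 calls without plus replicate 1 and 8 without plus replicate 2. By scaling, equal totals gave 68 rises and 107 falls, median-ratio scaling 107 rises and 93 falls. Of relatives, 1 was called under median-ratio scaling and 0 under the other alternatives that tested any, 0 also with 1 library left out. None was tested without plus replicate 1 or at a minimum mean of 20. Of rows near silent in the minus libraries, 243 to 325 lay above and 144 to 181 below with 1 library left out, chosen after seeing the data, where a group of 1 library makes an overlap less likely. The cluster ratios without their member ran from 1.95 to 4.35 (miR-302) and from 8.37 to 14.6 (HTR2C) with 1 library left out. The causes were not tested. Depth limits each level under 10 counts to a few reads.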
